A study of Mus musculus with 6 samples.

Results

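Classical monocytes that carried few transcripts of interferon-induced genes were examined in 6 single-cell RNA libraries, 1 mouse each. They were chosen by their raw UMI counts (a unique molecular identifier, or UMI, stands for 1 captured RNA molecule) among cells with at least 250 genes and at most 5% mitochondrial UMIs. A member had at least 3 Ly6c2 UMIs and at least 1 of Csf1r and Ccr2. It had at most 3 of the neutrophil genes Csf3r, Cxcr2, Retnlg and G0s2, at most 2 of the macrophage genes C1qa, C1qb and C1qc and at most 4 of Spp1 and Gpnmb, and none of Ace, Cd3d, Cd3e, Cd3g, Cd79a or Siglech. The sum of Rsad2, Ifit1, Ifit2 and Ifit3, genes switched on by interferon, was under 10. By these limits 2170 of 51633 cells (4.2%) were members. All values of the genes in the limits are therefore a description of the choice.

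The mice were female C57BL/6 animals aged 6 to 8 weeks that carried tumors of KPCA, a mouse ovarian cancer line able to repair DNA by homologous recombination, after injection of its cells into the ovarian bursa. The sample labels instead give lymph node as tissue, and the series design speaks of young and aged animals. The control mouse received solvent and rat IgG. 2-deoxy-D-glucose (2DG), a glucose analog, was injected at 500 mg/kg every 2 days from day 9, and 2-fluorofucose (2FF), an inhibitor of fucosylation, was given by gavage every 2 days after its tumor cells had been kept in 300 µM 2FF for 3 days. The sample labels name 2FF as 2F-Peracetyl-Fucose instead. The antibody anti-PD-L1, which blocks a checkpoint ligand of T cells, was injected at 5 mg/kg 2 times a week over 3 weeks. Tissue was taken on day 30. One mouse got 2DG with the antibody (the 2DG combination, 2DG plus anti-PD-L1 in the figures) and one got 2FF with it (the 2FF combination, 2FF plus anti-PD-L1 there). Every run of 6 values is given for control first, then 2DG, then 2FF, then the antibody alone, then the 2DG combination and last the 2FF combination. The libraries held 73885214, 61859753, 72009925, 62823127, 65369018 and 68394410 UMIs. With 1 library per group there is no replicate, so no test was made and a difference between treatments, mice or library preparations cannot be told apart. The 95% intervals are exact ones, Poisson for UMIs and Clopper-Pearson for shares of cells, and cover counting error only.

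Classical monocytes are short-lived blood cells marked in the mouse by Ly6C, which leave the bone marrow through the chemokine receptor CCR2 and enter inflamed tissue and tumors. There they can become macrophages or cells that resemble dendritic cells. Type I interferons reach them through a receptor whose signal leads a complex that holds STAT2 and IRF9 to bind the interferon-stimulated response element of genes such as Rsad2, Ifit1 and Isg15. Interferon-gamma from lymphocytes acts in part through IRF1 and raises the class II transactivator Ciita, which switches on the genes of MHC class II.

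Promoters of some of these genes are shown because the limit on interferon genes and the MHC class II genes are at the centre of the results. Each is the 200 bases before the start of the gene in RefSeq (GRCm38.p6), written 5′ to 3′ on the strand of the gene. Capitals mark the core of the interferon-stimulated response element, GAAANNGAAA, in the first 3 and the CCAAT box, the site of a general factor that is part of every class II promoter, in the last one. Both motifs were searched on both strands, and overlapping matches were allowed.
Rsad2, chr12:26456453-26456652, minus strand: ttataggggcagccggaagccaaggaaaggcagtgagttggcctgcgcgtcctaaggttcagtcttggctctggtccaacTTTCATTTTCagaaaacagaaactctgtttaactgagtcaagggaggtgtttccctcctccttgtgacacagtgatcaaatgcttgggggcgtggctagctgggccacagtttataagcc
Ifit3, chr19:34583329-34583528, plus strand: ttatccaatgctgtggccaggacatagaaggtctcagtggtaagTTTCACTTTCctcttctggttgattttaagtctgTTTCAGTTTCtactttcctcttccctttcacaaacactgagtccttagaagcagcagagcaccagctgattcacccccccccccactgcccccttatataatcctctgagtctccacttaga
Isg15, chr4:156200819-156201018, minus strand: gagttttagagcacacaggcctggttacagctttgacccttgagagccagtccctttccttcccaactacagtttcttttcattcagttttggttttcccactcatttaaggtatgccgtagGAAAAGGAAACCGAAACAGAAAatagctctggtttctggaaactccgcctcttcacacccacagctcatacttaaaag
H2-Aa, chr17:34287824-34288023, minus strand: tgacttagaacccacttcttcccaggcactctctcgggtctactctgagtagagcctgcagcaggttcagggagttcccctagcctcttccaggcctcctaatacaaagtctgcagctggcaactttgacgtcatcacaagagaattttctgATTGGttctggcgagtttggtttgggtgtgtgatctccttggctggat
The match in Rsad2 starts 120 bases before the gene, those in Ifit3 156 and 122 bases before it, and Isg15 holds 3 overlapping matches. Rsad2, Ifit1 and Ifit3 hold the core in these windows, and no match was found for Ifit2. The core was found in 746 of 32851 promoters of the same length (2.27%). It was found in 6 of 18 genes of the list of other interferon genes that had a promoter in the table, and in 12 of 15 interferon-gamma targets. The CCAAT box was found in 29.4% of all promoters and in 6 of 6 MHC class II genes with a promoter. A match describes the letters of a window and is no evidence that a factor binds there.

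The markers of the label were present. Chil3 and Vcan took no part in the choice. Chil3, which encodes a chitinase-like secreted protein, had a UMI in 89.5, 60.8, 63.6, 66.7, 55.6 and 71.0% of members, and Vcan, which encodes the proteoglycan versican, in 93.4, 60.8, 68.0, 52.1, 52.7 and 68.0%. Levels are given as CPM, the UMIs of a gene over the summed UMIs of the members of a library, scaled to a common total. Chil3 stood at 3106, 829, 828, 965, 613 and 1057 CPM, and in the T cells of the same libraries, which should lack it, at 17.4, 1.49, 2.74, 2.32, 3.65 and 6.37 CPM. Vcan stood at 1119, 390.0, 522, 363, 308 and 459 CPM and at 1.43 to 10.4 CPM in T cells. The control library was thus the highest for both genes by a wide margin, and the ranges of members and T cells did not overlap. Neither gene is confined to these cells. Chil3 reached 302.7 to 1568 CPM in Ace monocytes (gated on Ace, a marker of non-classical monocytes), 87.1 to 450.2 CPM in C1q macrophages and 146 to 1016 CPM in Spp1/Gpnmb macrophages, highest in the control library each time. Ccr2, 1 of the genes of the choice, was at 771, 852, 859, 680.2, 767 and 812 CPM in members. Lyz2, the lysozyme gene of myeloid cells, was seen in 97.4, 96.3, 95.2, 96.3, 94.9 and 96.1% of members.

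Some members did not look like monocytes. Members with at most 2 Lyz2 UMIs numbered 5, 17, 19, 24, 52 and 32, which was 3.29% of the control members and between 5.23% and 8.90% elsewhere. Members with at least 5 UMIs of the granule genes Gzma and Nkg7, which mark NK and cytotoxic T cells, numbered 1, 10, 10, 13, 29 and 11, and their median Lyz2 count was 0 in every library. The whole list of T and NK genes summed to 57.6, 515.9, 455.0, 361.4, 740.6 and 320.6 CPM, and Gzma was its most abundant gene in every library but the control. The T cell receptor genes Cd3d, Cd3e and Cd3g are at 0 by the choice. The list of B and plasma cell genes summed to 18.1 to 75.0 CPM, most of it Ighm. Tumor and stroma genes summed to 0.533 to 4.58 CPM and red cell genes to 0.483 to 4.43 CPM. Without the Lyz2-poor members Chil3 stood at 3144, 871, 880.3, 1006, 658 and 1121 CPM and H2-Aa at 146, 725, 506, 773, 845 and 409 CPM.

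**Figure D1:**
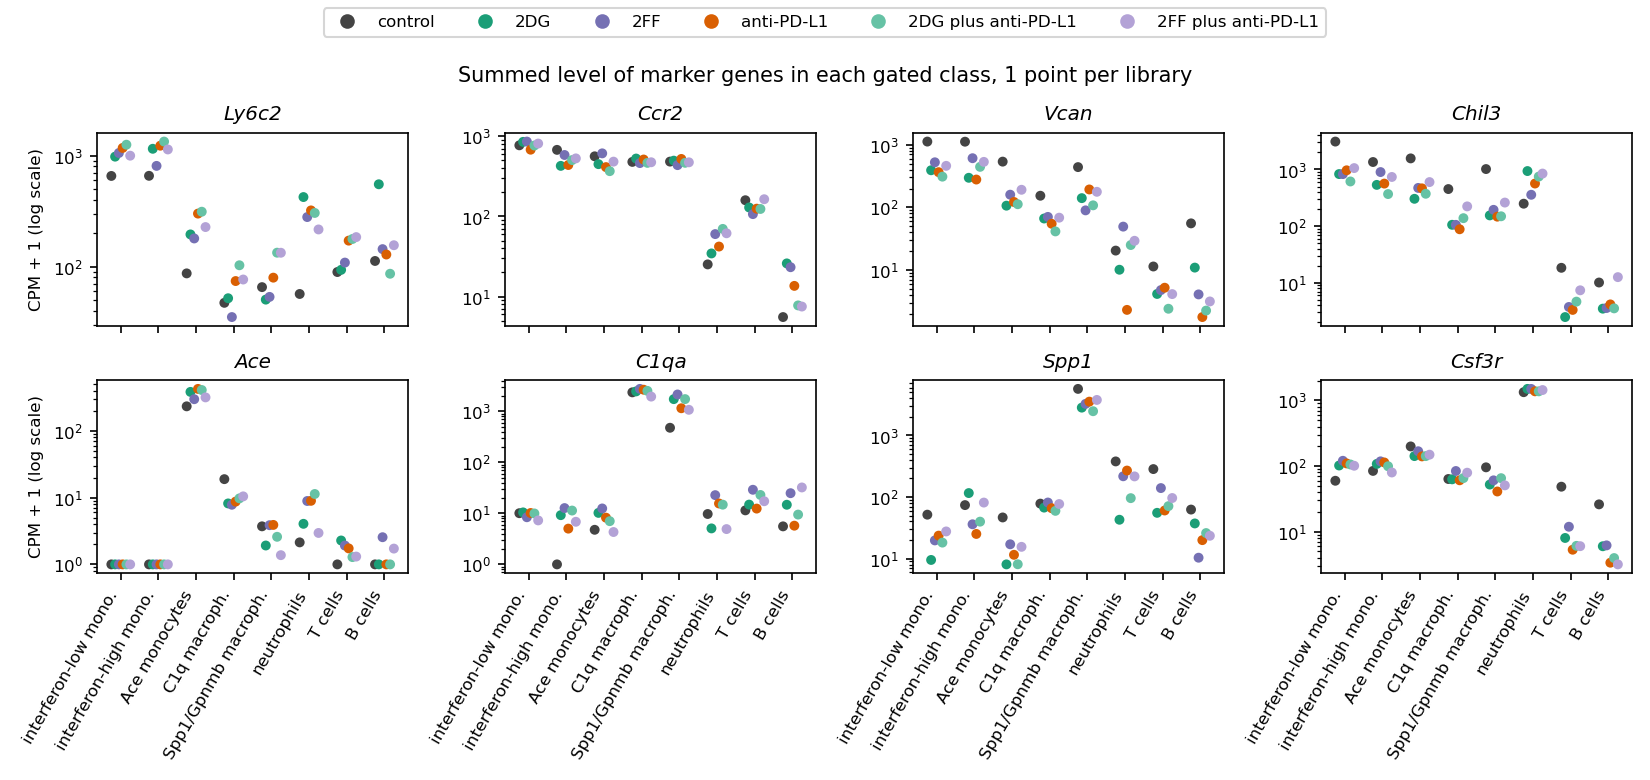
Levels of 8 marker genes in gated classes of cells, in CPM + 1 on a log scale, with 1 point per library coloured by treatment. Interferon-low classical monocytes carry Ly6c2, Ccr2, Vcan and Chil3, and Chil3 is highest in the control library in the monocyte and both macrophage classes.

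No barcode of a member occurred among members of another library, and 28 members shared a barcode with some other cell of another library, of 634 cells whose barcode was found in more than 1 library. The median member held 12608, 7751, 7254, 7109, 6774 and 8818 UMIs, so the control members were read most deeply. At the Ly6c2 limit, pooled over libraries, the 342 members with 3 UMIs had Chil3 at 994.6 CPM and 62.0% of them had a Chil3 UMI, against 980.6 CPM and 55.2% of the 567 cells with 2 UMIs that fulfilled all other limits. By library, the CPM of Chil3 was lower in the members than in those cells in control, 2DG and 2FF and higher in the other 3. At the interferon limit, 30 members had a sum of 8 or 9 and 18 cells a sum of 10 or 11. Chil3 UMIs were found in 66.7% and 72.2% of them, but 12 of the 18 came from the 2FF combination, against 9 of the 30.

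The share of these cells differed between the libraries. They were 152, 268, 269, 459, 584 and 438 cells, or 1.68% (1.42 to 1.96), 3.48% (3.08 to 3.91), 2.92% (2.58 to 3.28), 5.22% (4.76 to 5.70), 6.47% (5.97 to 7.0) and 5.61% (5.11 to 6.14) of the cells that passed the filters. The 3 libraries with anti-PD-L1 lay above the 3 without it, and the control lay lowest, with no overlap of these intervals. In the control library neutrophils were 24.2% and Spp1/Gpnmb macrophages 23.8% of cells, against at most 3.56% and 12.4% in any other library, and all shares are of captured cells. Upper limits on raw UMIs are harder to meet in deeply read cells and lower limits easier, and the part of depth in the shares was not tested.

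Few cells were kept out by the interferon limit. Classical monocytes at or above it numbered 9, 16, 10, 36, 56 and 81, which left 94.4, 94.4, 96.4, 92.7, 91.2 and 84.4% of all classical monocytes below it. The library of the 2FF combination held the largest share above the limit, 15.6% (12.6 to 19.0), and its interval overlapped that of no other library. The 2DG combination had 8.75% (6.68 to 11.2), which overlapped control, 2DG and anti-PD-L1. Among members, the share with no UMI at all of the 4 interferon genes was 86.8% (80.4 to 91.8) in the control library. It was 70.1%, 73.2% and 71.9% with 2DG, 2FF and anti-PD-L1, and 60.3% and 57.1% (52.3 to 61.8) in both combinations. These are the genes of the limit, so the shares describe the choice.

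**Figure D2:**
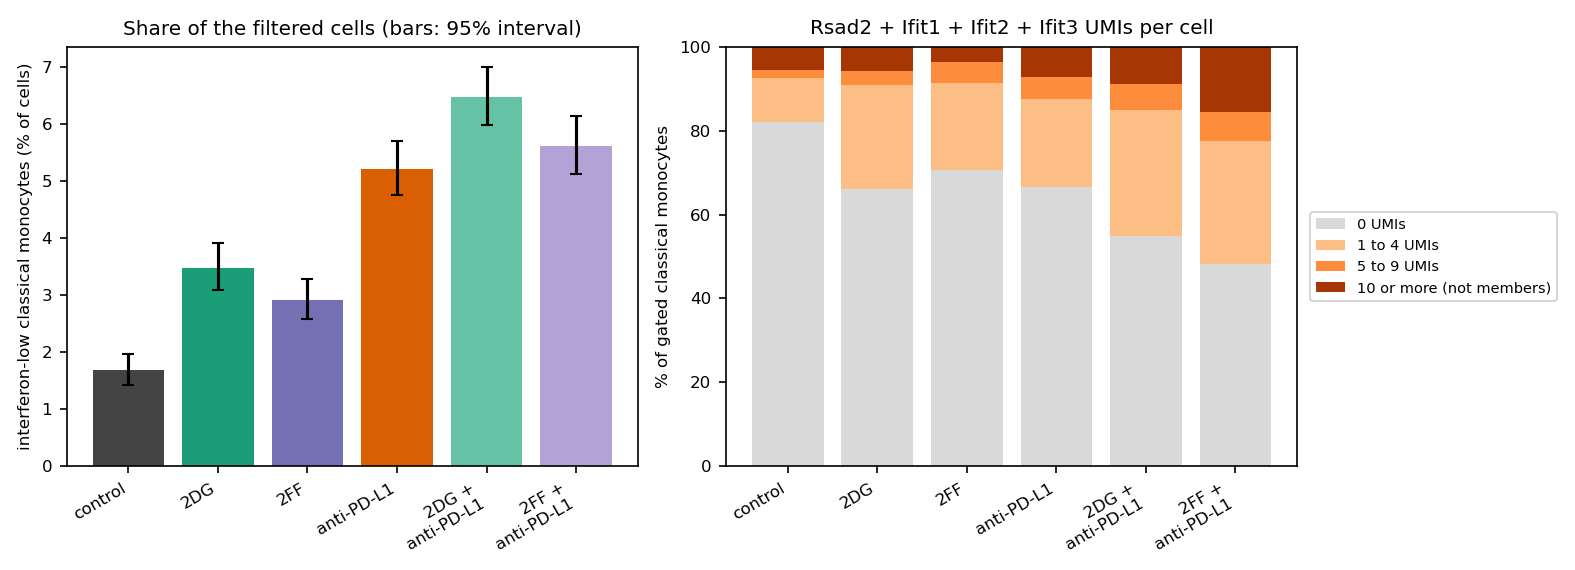
Left, interferon-low classical monocytes in percent of filtered cells with 95% counting intervals, 1 bar per library. Right, gated classical monocytes of each library by their summed UMIs of Rsad2, Ifit1, Ifit2 and Ifit3, with the dark part at 10 or more left out of the members. The share with 0 UMIs is lowest in the combinations.

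Genes that reached 50 UMIs in a pair of libraries were compared by their log2 ratio after 5 was added to each CPM, so differences of weakly expressed genes come out too small. A gene past 2-fold has a log2 ratio of at least 1 or at most -1. Of 7638 genes, 4.88% were past 2-fold higher and 2.25% lower in members of the anti-PD-L1 library than in those of the control. With 2DG over control these shares were 4.01% and 3.01% of 7077 genes, and with 2FF over control 3.84% and 3.3% of 6976. They were smaller without the control: 1.48% and 0.345% of 8113 genes for the 2DG combination over 2DG, and 0.859% and 0.303% of 7916 for the 2FF combination over 2FF. For the 2DG combination over anti-PD-L1 they were 0.854% and 0.261% of 8426 genes, and for the 2FF combination over anti-PD-L1 0.789% and 0.335% of 8370. The first 3 contrasts with the antibody (over control, over 2DG and over 2FF) share no library. Control stands in 3 of the 7 comparisons and anti-PD-L1 in 3, so the values of those are given side by side and not as independent repeats.

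A marked difference was in MHC class II, the molecules that present peptides to CD4 T cells. Control members had the lowest level of every main class II gene. H2-Aa (chr17:34282744-34287823, minus strand), the alpha chain of I-A, stood at 146, 773, 529, 800.1, 884 and 486 CPM, with counting intervals of 129 to 164 in the control and 464.6 to 508.1 or higher in all the others. Its partner H2-Ab1 stood at 173, 832, 586, 898, 926 and 557 CPM and H2-Eb1, the beta chain of I-E, at 91.2, 565, 338, 521, 619 and 338 CPM. Cd74, the invariant chain that guides class II molecules to the endosome, stood at 559, 2285, 1577, 2251, 2601 and 1650 CPM, and Ciita at 21.3, 90.1, 70.4, 90.6, 84.8 and 62.4 CPM. Of 7 class II genes tested, 6 were past 2-fold higher in anti-PD-L1, in 2DG and in 2FF over control, with medians of 2.00, 2.02 and 1.52 where the median of all genes was 0.08, 0.09 and 0.09. The seventh, H2-DMa, which loads peptides, was closer, at 175, 246, 253, 281, 258 and 228 CPM. Adding the antibody to 2DG or to 2FF gave list medians of 0.14 and -0.12, with no gene past 2-fold. The library of the 2FF combination was below anti-PD-L1 alone for all 7 genes, with a median of -0.50.

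This difference was also seen in the number of cells that carried these transcripts. With each cell thinned to 2000 UMIs, which left out 2 members, H2-Aa, H2-Ab1 or H2-Eb1 was found in 15.8% (10.4 to 22.6) of control members. The other libraries followed at 42.5% (36.5 to 48.7) with 2DG, 38.7% (32.8 to 44.8) with 2FF, 38.2% (33.7 to 42.8) with anti-PD-L1, 42.2% (38.1 to 46.3) with the 2DG combination and 33.6% (29.1 to 38.2) with the 2FF combination. Without thinning the shares were 34.2%, 56.0%, 58.7%, 56.2%, 58.0% and 53.6%. T cells, which make little class II in the mouse, had it in 11.1% to 18.6% when thinned, so the control members were close to that background. In the control library 66.3% of the H2-Aa UMIs lay in 5 cells, against 12.4% to 28.4% in the other libraries. The same direction was found in other myeloid cells of these mice. The class II median of anti-PD-L1 over control was 1.34 in Ace monocytes, 0.77 in C1q macrophages and 1.65 in Spp1/Gpnmb macrophages. MHC class I genes, which act in every nucleated cell, had medians of 0.26, 0.32 and 0.54 over control for anti-PD-L1, 2DG and 2FF, with Nlrc5, the class I transactivator, the only gene past 2-fold in any of the 3 (with anti-PD-L1).

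A UMI of the list of dendritic cell genes was found in 40.1% of control members and in 52.0% to 57.8% of members elsewhere. Its most abundant gene was Itgax in the control library and Ciita in all others. Cd209a, a lectin of monocyte-derived dendritic cells, was listed with 0 UMIs in the control and with 82, 79, 88, 270 and 109 UMIs in the other libraries. Members with at least 2 Cd209a UMIs numbered 0, 14, 13, 13, 38 and 10. A count of 0 in 152 control cells allows a share of up to 2.40% of cells with a UMI, and the other libraries had 6.34%, 6.69%, 5.66%, 8.73% and 4.57%, against 0.371% to 0.693% in T cells. After thinning to 2000 UMIs the shares of Cd209a in the other libraries were 2.05% to 4.97%, and all their intervals but that of the 2DG combination overlapped the one of the control. Dpp4 (CD26), a surface peptidase, stood at 1.60, 37.7, 37.4, 39.4, 33.4 and 17.3 CPM, and Il12rb2, a chain of the interleukin-12 receptor, at 3.20, 67.0, 70.9, 55.2, 104 and 59.7 CPM. Both were among the 5 highest ratios in anti-PD-L1, 2DG and 2FF over control, and both were at 61.4 to 192.6 CPM in T cells. T cells were 4.82% of the control cells and 24.19% to 35.25% of the cells of the other libraries. The part of T cell RNA in the values of Dpp4 and Il12rb2 was not tested. Of 12 genes in the dendritic list, 6 were tested in anti-PD-L1 over control and 4 of them were past 2-fold higher (Dpp4, Cd209a, Ciita and Flt3). Xcr1 and Clec9a, which define cross-presenting dendritic cells, were at or near 0.

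Genes typical of classical monocytes were split. Besides Chil3 and Vcan, the control had the highest level of F13a1, a coagulation factor subunit, at 1626, 787, 864, 1055, 767 and 860.5 CPM and of Fn1 (fibronectin) at 1973, 1156, 871, 1227, 776 and 1031 CPM. Thinned to 2000 UMIs, Chil3 was found in 82.2% (75.2 to 88.0) of control members and in 42.0% to 57.1% of members of the other libraries, and in at most 3.04% of T cells. Not all monocyte genes followed. Plac8 stood at 2168, 2814, 4163, 2454, 3787 and 3568 CPM with the control lowest. Over the 14 monocyte genes the medians were between -0.27 and 0.11 in the 7 comparisons, and Chil3, Vcan and Cd14 were the only ones past 2-fold lower with anti-PD-L1 over control. The 14 include genes of the choice. Without them the medians over control were -0.40 with anti-PD-L1, -0.16 with 2DG and -0.04 with 2FF. Cd14, a coreceptor for bacterial lipopolysaccharide, stood at 687, 284, 397, 305, 625 and 619 CPM, high in the control and in both combinations.

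**Figure D3:**
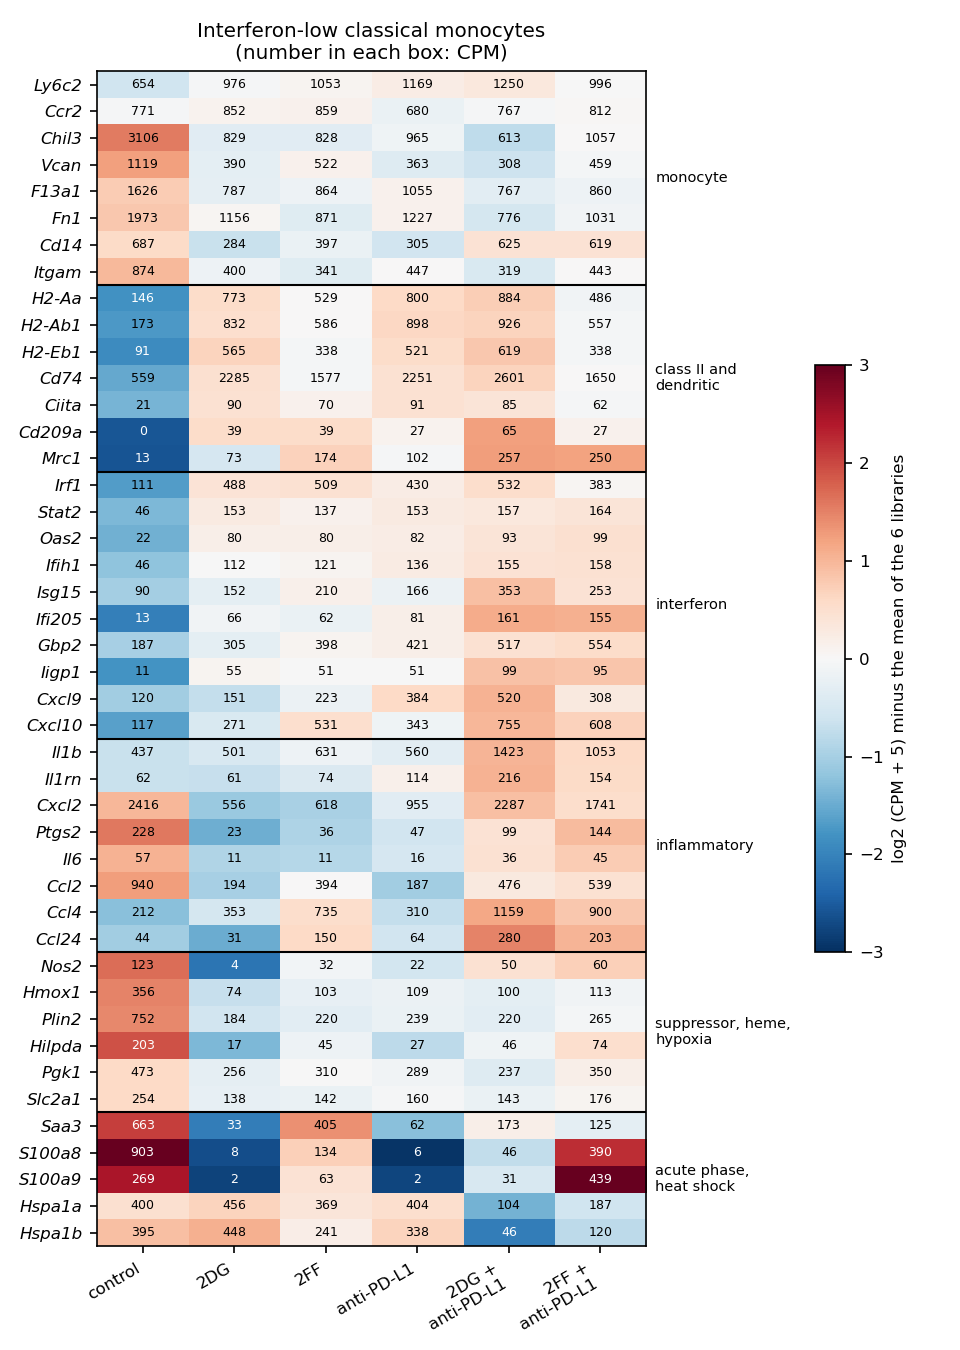
Levels of named genes in interferon-low classical monocytes. Each box gives the CPM in 1 library, coloured by the log2 of CPM + 5 minus the mean of the 6 libraries. The control column is high for Chil3, Vcan, Hmox1, Plin2 and S100a8 and low for MHC class II and interferon genes, and both combinations are high for Il1b, Ccl4 and Cxcl10.

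Within every library, members with a class II transcript carried Chil3 less often. After thinning to 2000 UMIs, Chil3 was found in 70.8% of 24 control members with an H2-Aa, H2-Ab1 or H2-Eb1 UMI and in 84.4% of 128 without. The shares were 36.0% and 54.5% with 2DG, 33.7% and 55.8% with 2FF, 42.9% and 60.8% with anti-PD-L1, 33.3% and 48.4% with the 2DG combination, and 42.2% and 64.6% with the 2FF combination. The 2 intervals overlapped in the control library and in no other, and this split of cells by their own transcripts is a description. Vcan went the same way, from 54.2% against 80.5% in the control to 25.2% against 32.6% in the 2DG combination, with overlapping intervals in both of these. Cxcl9, an interferon-gamma-induced chemokine, went the other way in all 6 libraries, for example 27.4% against 8.48% with anti-PD-L1. Its intervals overlapped in control, 2DG and 2FF, and the control shares rest on 4 of 24 and 5 of 128 cells.

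Interferon genes that the limit does not use differed in the same direction as class II. Of 26 such genes on the list, 25 matched and 24 were tested in anti-PD-L1 over control, 23 had a ratio above 0 and 14 were past 2-fold higher, with a median of 1.08. The counts were 11 of 23 genes with 2DG over control (median 0.93) and 14 of 23 with 2FF over control (median 1.14), and none was past 2-fold lower. Irf1, a factor induced by interferon-gamma, stood at 111, 488, 509, 429.8, 532 and 383 CPM, with a control interval of 96.3 to 127. The control value lay well under all the others, and thinned to 2000 UMIs Irf1 was found in 15.8% of control members and in 48.4% to 56.9% elsewhere. In T cells Irf1 was also lowest in the control library, at 172, 291, 271, 313, 258 and 242 CPM. Members hold at most 9 UMIs of the 4 genes of the limit, which also bounds genes expressed together with them.

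The guanylate-binding proteins and immunity-related GTPases, which attack the vacuoles of pathogens, form most of the interferon-gamma list. Of 15 genes tested in anti-PD-L1 over control, 9 were past 2-fold higher (median 1.15), among them Irf1, Iigp1, Socs1, Cxcl9 and Gbp4. There were 4 of 15 with 2DG (median 0.60) and 8 of 15 with 2FF over control (median 1.014). When the antibody was added to 2DG the list median was 0.77 and 2 of 16 genes (Cxcl9 and Serpina3g) were past 2-fold, and when it was added to 2FF the median was 0.47 with none past it. Gbp2 stood at 187, 305, 398, 421, 517 and 554 CPM and Gbp5 at 75.7, 124, 145, 153, 252 and 203 CPM, so both combinations were the highest. In Ace monocytes the medians of this list were 0.85 for anti-PD-L1 over control and 0.22 and 0.02 for the antibody over 2DG and over 2FF. The receptors differed less. The 12 genes of the interferon receptors and their signal chain had medians of 0.43, 0.40 and 0.47 over control, and Socs1, an inhibitor of this signal, and Stat2 were among the 3 genes past 2-fold each time.

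Chemokine genes did not go 1 way over control. With anti-PD-L1, 4 of 12 tested were past 2-fold higher (Ccl5, Cxcl9, Cxcl10 and Cxcl16) and 3 lower (Ccl2, Ccl12 and Ccl7), with a median of 0.10, and the medians were -0.12 with 2DG and 0.78 with 2FF. The first of these medians ran from -0.07 without members with at most 2 Lyz2 UMIs to 0.51 with genes of at least 200 UMIs. The second ran from -0.26 as a mean of single-cell CPM to 0.30 without members with a T, NK, B or granule UMI, so neither kept its sign. Cxcl10, a ligand of CXCR3, stood at 117, 271, 531, 343, 755 and 608 CPM and was found in 10.53, 23.5, 34.6, 29.0, 51.2 and 44.5% of members, lowest in the control and highest in both combinations. Thinned to 2000 UMIs it was found in 3.95% (1.46 to 8.39) of control members, 35.3% (31.4 to 39.4) of those with the 2DG combination and 29.2% (25.0 to 33.7) of those with the 2FF combination. T cells had it in 3.04% to 5.32%, so the control share was at that background. Cxcl9, another ligand of this receptor, stood at 120.5, 151, 223, 384, 520.4 and 308 CPM, and in the control 87.6% of its UMIs came from 5 cells. Ccl4, a chemokine made also by T cells, stood at 212, 353, 735, 309.6, 1159 and 899.8 CPM in members and at 478, 871, 1884, 945, 1852 and 1423 CPM in T cells. It was lowest in the control in both, and the part of T cell RNA in it was not tested. Ccl2, the ligand of CCR2 itself, was highest in the control, at 939.9, 194, 394, 187, 476 and 539 CPM. Of the 13 chemokine genes, 6 were past 2-fold higher in the 2DG combination over 2DG (Ccl24, Cxcl9, Ccl4, Cxcl10, Ccl7 and Ccl2) and none of 12 in the 2FF combination over 2FF. Ccl24 led the first group with a log2 ratio of 2.98, but 60.6% and 62.4% of its UMIs in these libraries came from 5 cells each.

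Among inflammatory cytokine genes, Il1b was highest in both combinations. Il1b (chr2:129364570-129371139, minus strand), which encodes interleukin-1 beta, stood at 437, 501, 631, 560.3, 1423 and 1053 CPM. Both combinations lay above the other libraries, at 1387 to 1460 CPM and 1021 to 1085 CPM against at most 666.9 CPM by counting error. Thinned to 2000 UMIs it was found in 57.8% (53.7 to 61.9) and 54.3% (49.5 to 59.1) of members there and in 33.6% to 41.3% elsewhere. Its antagonist Il1rn stood at 61.8, 60.8, 73.9, 114, 216 and 154 CPM. Tnip3, an inhibitor of NF-kappa-B signals, stood at 109, 87.2, 155, 102, 459.7 and 319 CPM and was among the 5 highest genes of the 2DG combination over 2DG and of both combinations over anti-PD-L1. In Ace monocytes Tnip3 was also highest in these libraries, at 409.5 CPM in the 2DG combination, and the 4 libraries outside the combinations had 61.4 to 183.4 CPM.

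Of 15 genes in the cytokine list, all 13 tested had a ratio above 0 in the 2DG combination over 2DG, and 8 were past 2-fold (median 1.42). In the 2FF combination over 2FF all 14 tested were above 0 and 5 were past 2-fold (median 0.78). Anti-PD-L1 over control differed in direction. There 4 of 14 were above 0 and 6 were past 2-fold lower (Cxcl3, Ptgs2, Il6, Clec4d, Cxcl2 and Trem1; median -0.99). The control was high for many of them. Cxcl2, which draws neutrophils, stood at 2416, 556, 618, 955, 2287 and 1741 CPM in members. In T cells it stood at 1163, 86.1, 113, 77.7, 136 and 136 CPM, again highest in the control, where neutrophils were most frequent. Il6 stood at 56.5, 10.8, 11.3, 15.9, 35.8 and 44.9 CPM, with 76.4% of the 106 control UMIs in 5 cells. The 2DG and 2FF libraries had medians of -1.50 and -1.17 over control. Against the antibody alone, 2 of 14 genes were past 2-fold higher in the 2DG combination (Il1b and Cxcl2; median 0.71) and 3 of 14 in the 2FF combination (Cxcl3, Ptgs2 and Il6; median 0.57).

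Several single genes of suppression, heme and low oxygen were highest in the control. Nos2, which makes nitric oxide, stood at 123, 3.77, 32.5, 22.3, 49.5 and 60.2 CPM, with 46.2% to 72.7% of its UMIs in 5 cells of each library. Cd274, which encodes PD-L1, the target of the antibody, stood at 186, 286, 469.8, 299, 489.7 and 519.9 CPM. It was lowest in the control and highest in the 2FF combination, where 74.2% of members had a UMI. Over the 12 to 14 suppressor genes tested the median was 0.10 with anti-PD-L1, -0.68 with 2DG and -0.35 with 2FF over control. After thinning the first was -0.2959, and with no filter beyond 1 UMI the second was -0.07915.

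Hmox1, heme oxygenase, stood at 356, 73.6, 103, 109, 99.6 and 113 CPM and Plin2, a coat protein of lipid droplets, at 752, 184, 220.1, 239, 220.2 and 265 CPM. The control was the highest in both. Hilpda, a hypoxia-induced lipid droplet protein, stood at 203, 17.0, 44.8, 27.4, 45.9 and 73.9 CPM, and C5ar1, the receptor of complement C5a, at 294, 28.3, 43.8, 44.8, 43.8 and 70.4 CPM. In T cells the control was highest too, where Plin2 stood at 134, 25.4, 30.5, 24.0, 28.4 and 29.2 CPM and Hilpda at 156, 22.1, 44.1, 24.2, 49.6 and 29.1 CPM. The share of free RNA in these values was not tested. Of 20 glycolysis and hypoxia genes tested over control, 17 to 19 had ratios under 0 with anti-PD-L1, 2DG or 2FF, with medians of -0.54, -0.61 and -0.59, and Hilpda and Bnip3 were past 2-fold lower each time. Pfkp, a phosphofructokinase, was past 2-fold higher with 2DG over control and in neither of the other 2, at 268, 548, 401, 452, 451 and 502 CPM. In Ace monocytes the same medians were -0.98, -1.03 and -0.93. In C1q macrophages they were 0.32, 0.20 and 0.42. 2DG competes with glucose for hexokinase, and any part of this in the list medians was not tested. Ldha, lactate dehydrogenase A, stood at 408, 273, 282, 285, 257 and 321 CPM.

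Neutrophil and acute-phase transcripts were plentiful in control members. S100a8, a calcium-binding alarmin, stood at 903, 8.49, 134, 6.10, 45.9 and 390.5 CPM and was found in 69.1% of control members. The next highest value, in the 2FF combination, rests on few cells, as 95.5% of its 1558 UMIs there came from 5 cells. For S100a9, its partner, 99.5% of the 1751 UMIs in that library came from 5 cells, and so did nearly all UMIs of the granule genes Camp and Ngp, which were at or near 0 elsewhere. Wfdc21 stood at 179, 3.30, 10.3, 2.44, 5.56 and 15.8 CPM, Lrg1 at 251, 12.7, 61.6, 20.7, 19.1 and 49.9 CPM and Saa3, an acute-phase protein, at 663, 32.5, 405, 61.9, 173 and 125 CPM. These 3 were highest in the control. Wfdc21 and Lrg1 were among the 5 lowest of anti-PD-L1 and of 2DG over control. The summed level of the 18 neutrophil genes was 1840, 246.1, 592.4, 265.1, 305.5 and 1525 CPM. It was 1765, 142.4, 467.8, 151.9, 198.4 and 1420 CPM without Csf3r, Cxcr2, Retnlg and G0s2, which the choice of members bounds. T cells of the control library held S100a8 at 496.2 CPM against 9.30 to 23.6 CPM in T cells elsewhere, and neutrophils were 24.2% of the cells of that library. The part of free neutrophil RNA in the control values was not tested.

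**Figure D4:**
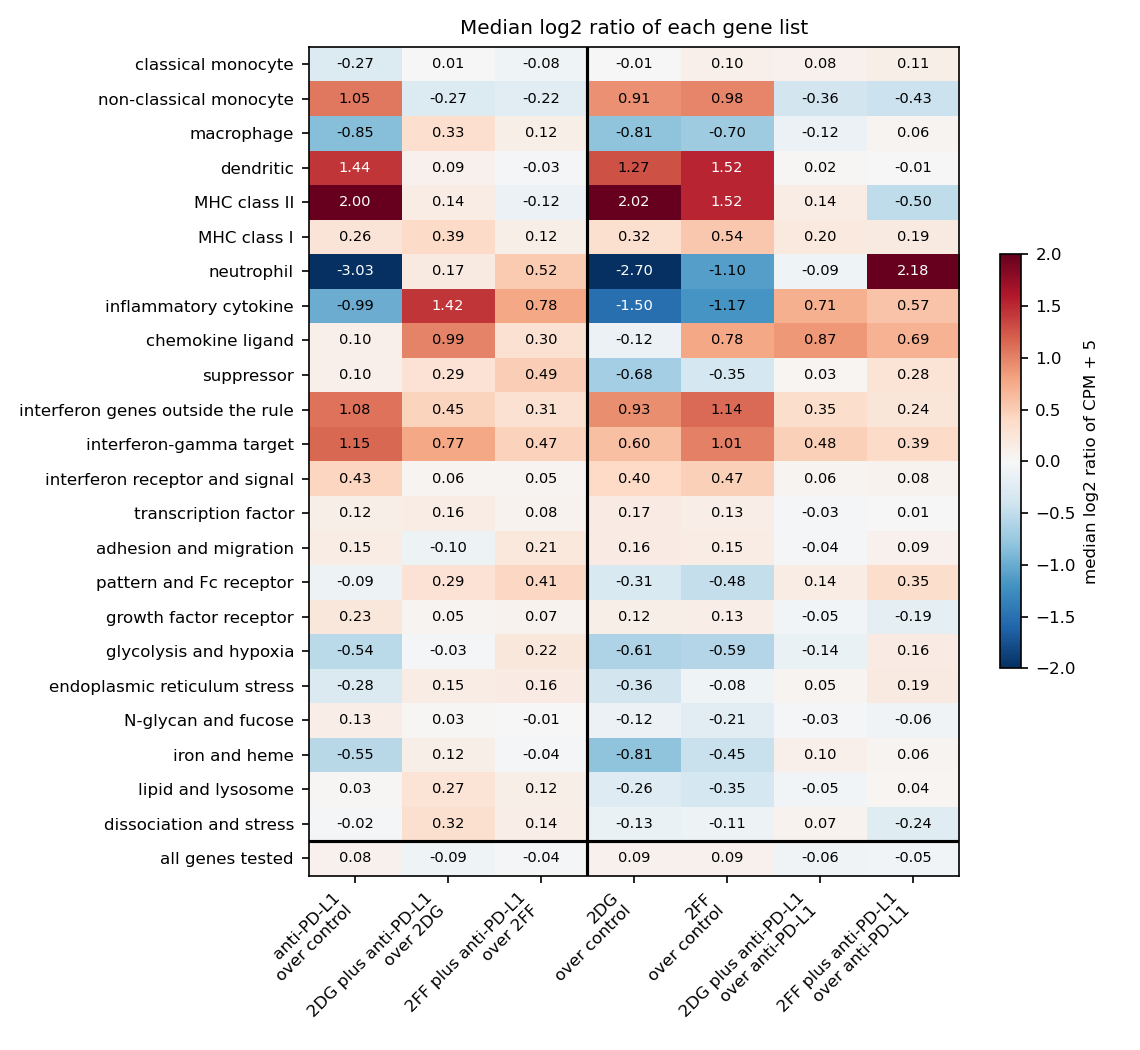
Median log2 ratio of CPM + 5 of each gene list (rows) in 7 comparisons of interferon-low classical monocytes (columns), with all genes tested in the last row. The 3 columns left of the line share no library. MHC class II is near 2 over control for anti-PD-L1 and 2DG, and inflammatory cytokine genes are below 0 in anti-PD-L1 over control and above 0 when the antibody is added to 2DG or 2FF.

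Libraries with and without the antibody formed 3 pairs that share no library. Of 7445 genes tested in all 3, 28 were at least 1.5-fold higher with the antibody in each pair (0.376%) and 3 were at least 1.5-fold lower (0.0403%). In single pairs 14.04%, 4.81% and 3.84% of these genes were past 1.5-fold higher, and 7.08%, 4.61% and 4.19% lower. The leading genes were Ifi205 and Ifi206, members of the interferon-induced p200 family. Ifi205 (chr1:174011998-174031810, minus strand) stood at 13.3, 65.5, 61.6, 81.1, 161 and 155 CPM, which made its log2 ratios 2.23 over control, 1.24 over 2DG and 1.26 over 2FF. Members with an Ifi205 UMI were 11.2, 27.6, 23.8, 26.4, 43.8 and 45.2%. The p200 genes are close copies, so reads may be shared among them. Gbp6, Iigp1 and Ifit2, 1 of the genes of the limit, were in the same group.

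Others of the 28 were not interferon genes by name. Nrg1, the growth factor neuregulin 1, stood at 177, 366, 467, 458, 973 and 821 CPM, so that the 2FF library was as high as the antibody alone. Il1rn, Egr2, an early growth response factor, and Lsmem1 were also at least 1.5-fold higher in each pair. Egr2 was low throughout, at 5.86, 6.13, 6.89, 20.7, 15.9 and 18.6 CPM. Rsrp1, Ptgr1 and Hist1h2ae were the 3 lower genes. For Ifi205 the members of both combinations had more than the members given the antibody alone, 161.2 and 154.9 against 81.1 CPM.

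**Figure D5:**
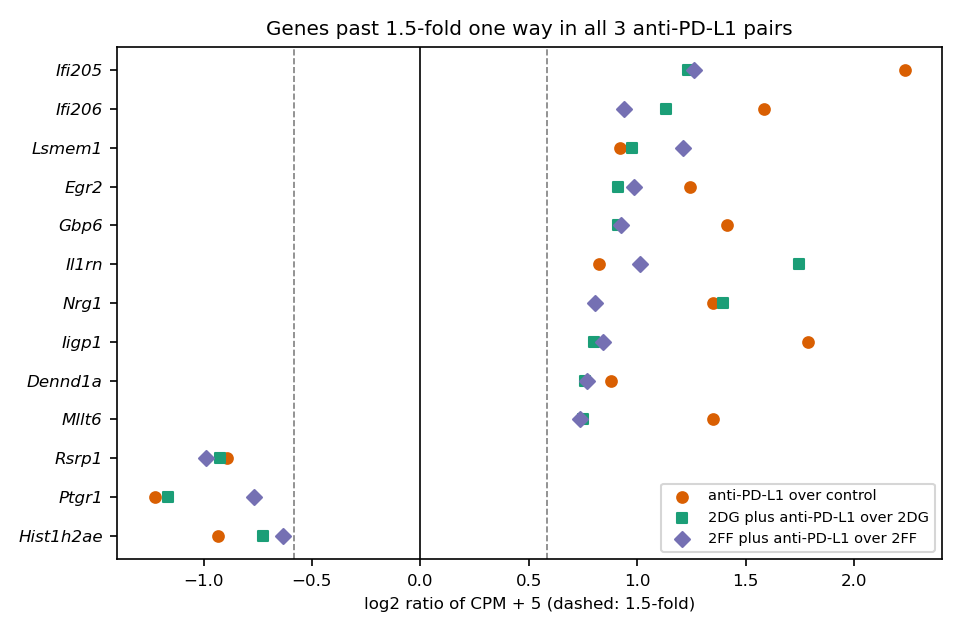
Log2 ratios of CPM + 5 with over without anti-PD-L1 in interferon-low classical monocytes, for the 13 genes named by size in the 3 pairs. Dashed lines mark 1.5-fold. All 10 upper genes lie right of the right line and all 3 lower genes left of the left line in each pair.

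Some genes at the ends of single comparisons were also low in the T cells of the same library. Hspa1b, a heat shock protein with a near-identical copy, Hspa1a, stood at 395, 448, 241, 338, 45.9 and 119.8 CPM in members and at 477, 179, 98.4, 75.6, 17.5 and 79.2 CPM in T cells. It was the lowest gene of the 2DG combination over 2DG, with a log2 ratio of -3.15. Slc15a2, a peptide transporter, was the lowest gene of both combinations over anti-PD-L1, with 80.5, 20.3, 50.7, 92.1, 6.04 and 13.5 CPM in members and 65.8, 15.3, 28.6, 32.9, 5.99 and 7.79 CPM in T cells. Taco1 stood at 35.2, 51.9, 28.6, 56.4, 14.3 and 36.9 CPM and at 35.7, 49.4, 21.0, 54.3, 14.5 and 32.8 CPM in T cells. For each of these 3 genes the library that was lowest in members was also the lowest in T cells, while Hspa1b and Slc15a2 were highest in different libraries in the 2 kinds of cells, and what differed between the libraries was not tested. Over the 20 stress genes that tissue dissociation induces, medians were between -0.24 and 0.32.

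Mrc1, the mannose receptor of macrophages, was the only macrophage gene past 2-fold higher in the comparisons over control. It stood at 13.3, 73.1, 174, 102, 257 and 249.7 CPM and was past 2-fold higher in 6 of the 7 comparisons with at most 21.8% of members holding a UMI. In the control library 76.0% of its 25 UMIs came from 5 cells. Cd63, also on the macrophage list, was past 2-fold higher in the 2DG combination over 2DG and over anti-PD-L1. Of 9 macrophage genes tested over control, Hmox1, Trem2 and Spp1 were past 2-fold lower with anti-PD-L1 and with 2DG, where Spp1 is bounded by the choice. The 8 tested genes of non-classical monocytes had medians of 1.05, 0.91 and 0.98 over control. Treml4, Spn and Adgre4 were past 2-fold higher with anti-PD-L1, 2DG and 2FF. Their marker Ace is at 0 by the choice. Cx3cr1, the fractalkine receptor, stood at 29.9, 75.5, 63.5, 82.3, 64.5 and 42.1 CPM.

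Of 24 genes of N-glycan branching and fucosylation, the processes that 2DG and 2FF were given to inhibit, 14 to 17 could be tested, and medians were between -0.21 and 0.13. Fut8, which adds the core fucose, stood at 39.98, 63.7, 57.6, 55.8, 54.1 and 52.9 CPM. Gcnt1 and St6gal1 were past 2-fold lower and Man1a past 2-fold higher with anti-PD-L1, 2DG and 2FF over control. Mgat4a was also past 2-fold lower with 2FF over control. Gcnt1 was past 2-fold higher in the 2FF combination over 2FF, and St3gal6 in the 2DG combination over 2DG. None of the 14 tested genes of endoplasmic reticulum stress was past 2-fold in any of the 7 comparisons. The 18 transcription factors had medians between -0.03 and 0.17, with Cebpa past 2-fold higher and Cebpb past 2-fold lower in anti-PD-L1 over control. Cebpb and Nr4a1 were past 2-fold higher in the 2FF combination over anti-PD-L1. Adhesion and migration genes had medians between -0.10 and 0.21, growth factor receptor genes between -0.19 and 0.23, and pattern and Fc receptor genes between -0.48 and 0.41. The 5 tested iron and heme genes were all lower over control, with medians of -0.55 with anti-PD-L1, -0.81 with 2DG and -0.45 with 2FF, Hmox1 among them, and had medians from -0.04 to 0.12 in the other comparisons. Lipid and lysosome genes had medians from -0.35 to 0.27, and cell cycle genes, of which 4 to 6 could be tested, from -0.33 to 0.44.

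Members and the classical monocytes at or above the interferon limit were set side by side within each library. The limit made this contrast, so the ratios are a description, and the high cells number only 9, 16 and 10 in the libraries without the antibody. Of 4744 genes tested in all 6 libraries, 22 were past 2-fold higher in members in each of them (0.464%) and 77 past 2-fold lower (1.62%). Slfn4, Isg15, Nos2, Oasl1 and Cxcl10 were the genes most below the high cells. Nos2 stood at 461.8 to 887.5 CPM in the high cells. Stk10, Ldlrad3 and Slc9a9 led the genes above them. Stk10, a kinase of lymphocyte migration, stood at 117.8 to 262.9 CPM in members and 11.7 to 57.5 CPM in the high cells. Class II genes did not separate the classes in 1 direction. Their median was above 0 in 4 libraries, from 0.15 to 0.86, and -0.37 and -0.36 with 2DG and the 2DG combination.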

How the data were processed

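Per library, the authors deposited a matrix of unnormalized UMI counts, genes by cell barcodes, made from 10x Genomics 3' libraries and the mouse genome mm10. The submitters' processing notes name Cell Ranger 3.1.0, whereas the header of the deposited matrices names version 7.0.0. Cells with at least 250 genes and at most 5% mitochondrial UMIs were kept, members were chosen by the limits on raw UMIs, and a doublet caller marked cells without removing them. Counts were summed over members and compared as log2 ratios of CPM + 5, for genes that reached 50 UMIs in the pair. Named genes were the 5 highest and 5 lowest of each comparison, the 10 leading ones each way over the 3 antibody pairs and over the 6 libraries between interferon-low and interferon-high cells, the markers and the list genes. The ranked parts left out mitochondrial, ribosomal protein, immunoglobulin, T cell receptor, haemoglobin and limit genes, Xist, genes seen in under 5% of members, and genes that another class of the library held at more than 5 times the CPM (under 20%). Other genes were chosen after their values were seen, and some genes the rule names are not reported here. The members and lists were chosen with earlier results of these data known. Groups came from the sample labels. With 1 library per group no test was run, and intervals cover counting error only. Alternatives changed the pseudocount, the UMI filter, the depth, the Ly6c2 limit and the members. The scripts were checked on simulated data. Python 3.11.15, numpy 2.4.6, scipy 1.17.1, pandas 2.3.3, scikit-learn 1.9.0 and matplotlib 3.10.9 were used. Gene positions are those of GENCODE M21 on GRCm38.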

Additional observations from a re-analysis of the deposited data

Results flagged for a closer look

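In 5 gene lists the median log2 ratio of the antibody over its partner without it was at least 0.25 in one of the 3 pairs that share no library and at most -0.25 in another, with at least 4 genes tested in each pair. Other lists had medians of both signs that did not reach this size. The difference was not tested, since each group is 1 library. Inflammatory cytokine genes had -0.9885 over control, 1.424 over 2DG and 0.7794 over 2FF. Non-classical monocyte genes had 1.047, -0.2744 and -0.2218 in the same order. Under alternatives the value over 2DG ran from -0.3707 to -0.1892, so it did not always reach the size of 0.25. The value over 2FF ran from -0.2757 to 0.009582. The next lists, of macrophage and neutrophil genes, hold genes that the choice of members bounds, and the macrophage median over 2DG is the ratio of one of these, C1qb. Macrophage genes had -0.8478, 0.3299 and 0.1227, and -0.5043, 0.26 and 0.1227 without C1qa, C1qb, C1qc, Spp1 and Gpnmb. With no filter beyond 1 UMI the first was -0.1182 and the last -0.09874. Neutrophil genes had -3.029, 0.1721 and 0.5192, and -4.139, 0.2941 and 0.6 without Csf3r, Cxcr2, Retnlg and G0s2. The first reached -0.553 with no filter beyond 1 UMI, the last turned to -0.4727 without members with a T, NK, B or granule UMI, and the values of S100a8 and S100a9 in the 2FF combination rest largely on 1 cell. T and NK cell genes had 2.193, 0.5657 and -0.4586, with only 4, 6 and 5 of the 14 genes tested. Those past 2-fold higher over control were Gzma, Nkg7 and Gzmb. Members with at least 5 UMIs of Gzma and Nkg7, whose median Lyz2 count was 0, numbered 1 in the control and 10 to 29 elsewhere. Their part in these medians was not tested, and this list was not run under the alternatives.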

How the results depend on the processing

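No paired test was run on the 3 antibody pairs, and no replicate could be left out because each group is 1 library. Genes past 1.5-fold in all 3 antibody pairs numbered 28 higher and 3 lower, and 13 and 1 with a pseudocount of 20, 15 and 1 with at least 200 UMIs, and 17 and 1 after thinning to 2000 UMIs. Lower genes were 10 with a pseudocount of 1 and 6 without a filter beyond 1 UMI. Counts past 2-fold follow in the order anti-PD-L1, 2DG and 2FF over control, the 2DG combination over 2DG, the 2FF combination over 2FF, and both combinations over anti-PD-L1. With a pseudocount of 20 they were 155, 126, 146, 56, 26, 29 and 29 higher and 106, 129, 129, 10, 6, 9 and 9 lower. With at least 200 UMIs they were 182, 113, 117, 77, 42, 46 and 43 higher and 108, 128, 135, 12, 4, 14 and 16 lower. A pseudocount of 1 gave 110 higher in the 2FF combination over 2FF and 120 in the 2DG combination over anti-PD-L1, and 81, 71, 79 and 88 lower in the last 4 comparisons. Without a filter beyond 1 UMI, 433 were higher with 2DG and 415 with 2FF over control. Thinning gave 172 and 157 higher and 126 and 145 lower there, and 40 lower in the 2DG combination over anti-PD-L1. Some alternatives were chosen after seeing the data. Without members with a T, NK, B or granule UMI, 186 were higher with 2DG over control and 103 in the 2FF combination over 2FF, 55 were lower in the 2DG combination over 2DG and 56 over anti-PD-L1, and the neutrophil median of the 2FF combination over 2FF turned to -0.4727. Leaving the genes of the limits out of the classical monocyte, non-classical monocyte, macrophage and neutrophil lists turned no median of at least 0.25 in size. Without members with at most 2 Lyz2 UMIs, 14 were lower in the 2FF combination over 2FF and the share of members in the 2DG combination was 5.894%. With at least 5 Ly6c2 UMIs the shares were 1.146%, 2.493%, 2.082%, 3.727%, 4.686% and 3.894%. Of 1016 list medians under alternatives, 833 lay within 0.1 of the value reported and the others moved further. Another sign was found for 23, 22 of them where the reported median was under 0.25 in size. The neutrophil median of 2DG over control was -0.7135 with no filter beyond 1 UMI, and that of the 2FF combination over anti-PD-L1 was 0.216 without members with a T, NK, B or granule UMI. The causes were not tested.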
